A study of Mus musculus with 72 samples.

Results

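Il33 encodes a cytokine of the interleukin-1 family, and its expression was followed in the brain of the Ts1Cje mouse, a model of Down syndrome, and of disomic littermates. The members were all probe sets annotated to Il33 or to Il1rl1, the gene of its receptor. Of 45101 probe sets on the array, 1 carried the symbol Il33 (1416200_at) and 0 carried the symbol Il1rl1 in the annotation used here, so the receptor was not analysed here and Il33 is described alone, together with the rest of its signalling pathway. Il33 was chosen by its measured level on these arrays, which was higher in Ts1Cje cerebellum and hippocampus, and the genotype differences in those regions are therefore given as a description, with no test.

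RNA of 24 mice was hybridised to 72 arrays, 1 per mouse and region, taken at 4 ages (postnatal days P1, P15, P30 and P84) from the cerebral cortex, the hippocampus and the cerebellum, in 24 groups of 3 arrays by region, age and genotype. Ts1Cje mice carry an extra copy of a distal segment of chromosome 16, translocated onto chromosome 12, together with the loss of a small end segment of chromosome 12. They also carry a neomycin cassette in Sod1, by which they were genotyped, and came from Ts1Cje fathers and C57BL/6 mothers. Disomic littermates, from the same matings, had neither change, and the labels name every mouse as female. All regions are whole tissue, and the 3 regions of an age came from the same mice. Il33 lies on chromosome 19 and Il1rl1 on chromosome 1, both outside the triplicated segment.

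As background, the IL-33 protein is an alarmin: it is held in the nucleus of the cells that make it and is released when they are damaged. Outside the cell it binds ST2, the product of Il1rl1, which pairs with the shared co-receptor encoded by Il1rap and signals through the adaptor Myd88, the kinases of the Irak family and the ubiquitin ligase Traf6 to NF-kappaB and MAP kinases. In the mouse brain Il33 is known as a product of astrocytes and oligodendrocytes, and astrocyte IL-33 is known to act on microglia.

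RefSeq places 2 start sites of Il33 on the forward strand of chromosome 19, 20677 bases apart, and the 250 bases before each are shown because the array has a single value for the gene and does not tell its starts apart. The capitals mark TATAAA, the core of the TATA box. The build is GRCm38.p6.
Il33 upstream start, chr19:29924863-29925112, forward strand: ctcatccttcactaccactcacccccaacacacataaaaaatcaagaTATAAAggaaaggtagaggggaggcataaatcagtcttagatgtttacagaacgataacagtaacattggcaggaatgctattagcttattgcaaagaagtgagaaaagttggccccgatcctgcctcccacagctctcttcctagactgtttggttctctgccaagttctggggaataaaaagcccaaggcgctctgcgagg
Il33 downstream start, chr19:29945540-29945789, forward strand: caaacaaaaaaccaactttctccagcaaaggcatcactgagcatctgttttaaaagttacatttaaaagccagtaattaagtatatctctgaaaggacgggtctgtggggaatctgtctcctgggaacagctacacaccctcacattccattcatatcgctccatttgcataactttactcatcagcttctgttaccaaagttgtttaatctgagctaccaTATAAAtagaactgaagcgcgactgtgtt
The word TATAAA began at position -29 relative to the downstream start and at -203 relative to the upstream start, and it was present on either strand in 12.4% of the 32817 windows of the same length over all genes. Neither window held TTCNNNGAA, the letters of the GAS element (7.01% of windows), or the core of the interferon-stimulated response element (2.97% of windows). Both were searched on both strands, and the capitals do not overlap with another motif. A match in these letters is a description of the sequence and not a binding site.

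Some arrays stood apart from their labels. On an axis set at 0 by the other hippocampal arrays of the same age and at 1 by the other cerebellar arrays, the array labelled disomic P15 cerebellum replicate 3 lay at 0.0118 and the array labelled disomic P15 hippocampus replicate 3 at 0.988, whereas the remaining cerebellar arrays lay at 0.815 or above and the remaining hippocampal arrays at 0.138 or below. Upper quartiles were 4.97 to 5.51 on 3 disomic replicate 3 arrays (P1 cerebellum, P84 cerebral cortex and P84 hippocampus), against 5.65 to 5.93 on the other arrays. Xist, expressed from the inactive X chromosome, exceeded the Y-linked Eif2s3y on 3 arrays only, those of Ts1Cje P1 replicate 3, and was below it on the other 69 arrays although the labels give all mice as female. Array medians lay between 3.20 and 3.37, and values below them were not shown to be above background. Values without these arrays are given beside the Il33 results whose call or size they changed most.

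Il33 changed with age in all 3 regions, with its highest mean at P84. In the cerebral cortex its mean was 2.65 ± 0.157 at P1, 5.95 ± 0.495 at P15, 7.0 ± 0.435 at P30 and 8.70 ± 0.441 at P84 (log2 values, SD, n = 6, both genotypes). In the cerebellum the means were 5.14 ± 1.24 at P1, 4.97 ± 0.594 at P15, 6.30 ± 0.735 at P30 and 8.03 ± 0.554 at P84. In the hippocampus they were 2.62 ± 0.343 at P1, 5.47 ± 1.04 at P15, 6.93 ± 0.518 at P30 and 8.91 ± 0.345 at P84. Cortex and hippocampus thus began below the median of their arrays, on 6 of 6 arrays each at P1, and ended above every array's upper quartile, while the cerebellum began above its array medians. Over the 4 ages limma's moderated F test gave Benjamini-Hochberg adjusted p of 2.72e-25, 5.94e-15 and 7.4e-26 for cortex, cerebellum and hippocampus, tests that 43%, 46.2% and 37.6% of all probe sets passed in these regions. In bulk tissue, fewer cells of a type and less RNA per cell cannot be told apart.

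**Figure D1:**
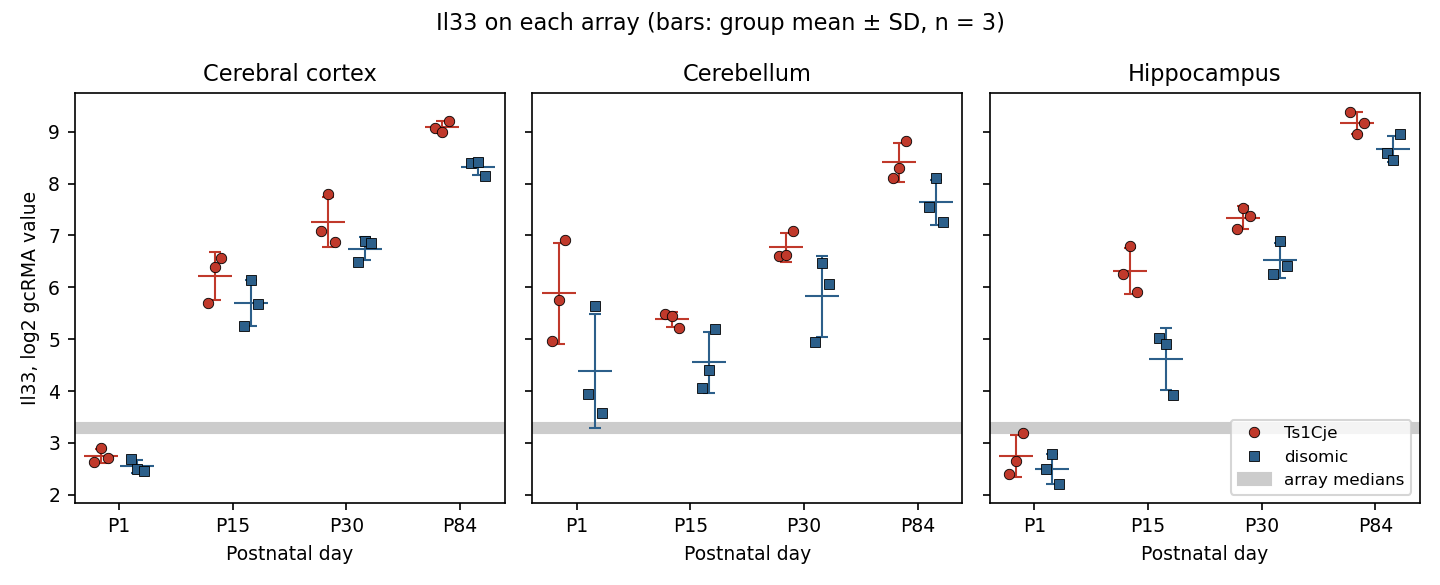
Il33 on each array (log2 gcRMA value) against age in the 3 regions, with Ts1Cje as red circles, disomic as blue squares, the horizontal and vertical bars as group mean ± SD (n = 3) and the grey band as the range of array medians. Il33 lay below the band at P1 in cortex and hippocampus, and every P84 array lay above every P30 array of its region.

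The late increase was called in all 3 regions. A step between ages counted as called where the moderated t reached 4 in size and the adjusted p did not exceed 0.05 (limma). From P30 to P84 Il33 gained 1.71 in the cortex (SE 0.266, adjusted p = 1e-04, 3.26-fold), 1.73 in the cerebellum (adjusted p = 2.82e-05, 3.32-fold) and 1.98 in the hippocampus (adjusted p = 3.73e-06, 3.95-fold). In that interval 0.286% of probe sets passed in the cortex, 0.712% did so in the cerebellum and 0.313% in hippocampal tissue. A call upwards in all 3 regions was made for 0.00887% of probe sets, namely those of Il33, Neat1 (a nuclear long non-coding RNA that scaffolds paraspeckles), Sptbn1 (a spectrin of the membrane skeleton) and Etnppl (a phospho-lyase of phosphoethanolamine known as enriched in astrocytes), the last 3 named after their values were seen. All 6 P84 arrays exceeded all 6 P30 arrays of the same region for Il33, a separation found for 0.173% of probe sets in the cortex, 0.497% in the cerebellum and 0.122% in hippocampal tissue. With disomic arrays alone in the contrast, the step was 1.57 in the cortex, where the call was lost (adjusted p = 0.0684), 1.82 in the cerebellum and 2.15 in the hippocampus.

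The earlier steps are given by region, and a difference between regions in a step was not tested. From P1 to P15 Il33 increased by 3.31 in the cortex (SE 0.266, adjusted p = 1.76e-15) and by 2.84 in the hippocampus (adjusted p = 4.9e-13), where 23.8% and 19.1% of probe sets were called. Because the P1 level lay below the array medians there, the size of this step is not settled. With values below an array's median set to that median, an alternative chosen after seeing the data, it was 2.72 in the cortex and 2.22 in the hippocampus. In the cerebellum the same step was -0.17 (later age minus earlier, 95% interval -0.70 to 0.37, adjusted p = 0.666), against 21.9% of probe sets called. Without the 2 arrays that went against their region labels it was -0.33, and the hippocampal step was 3.02. From P15 to P30 Il33 gained 1.33 in the cerebellum (adjusted p = 0.000294) and 1.47 in the hippocampus (adjusted p = 0.000207), where 4.53% and 1.75% of probe sets were called. Without those 2 arrays these steps were 1.49 and 1.29, both still called. The cortical step of 1.05 had an adjusted p of 0.0146 but a moderated t of 3.93, so it was not called, in an interval with 1.67% of probe sets called. It was called without the 3 dim arrays (adjusted p = 0.00944) and without the 2 arrays that went against their region labels (adjusted p = 0.00677). The cerebellar step from P15 to P30 lost its call in a fit to the cerebellar arrays alone (adjusted p = 0.0295) and with disomic arrays alone (1.27, adjusted p = 0.0299).

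The cerebellum had the highest mean of the 3 regions at P1 and the lowest from P15 onward. At P1 Il33 was higher in the cerebellum than in the cortex by 2.49 (SE 0.266, adjusted p = 5.32e-11, 5.62-fold) and the hippocampus minus cerebellum difference was -2.51 (adjusted p = 5.96e-11), comparisons in which 13.3% and 10.1% of probe sets were called. Cerebellum minus cortex was -0.98, -0.70 and -0.68 at P15, P30 and P84, none of which reached the moderated t for a call (14.3%, 17.2% and 16.9% of probe sets did). Without the 2 arrays that went against their region labels the P15 difference was -1.15 and was called (adjusted p = 0.000547). The hippocampus minus cortex difference was -0.02 at P1, -0.49 at P15, -0.07 at P30 and 0.21 at P84, with adjusted p of 0.403 or more at every age, while 2.22%, 3.43%, 4.04% and 4.22% of probe sets were called. The P15 value was -0.31 without the 2 arrays and -1.08 with disomic arrays alone, and the P84 value was 0.097 without the dim arrays, none of them called. Hippocampus minus cerebellum was 0.50 at P15, 0.64 at P30 and 0.89 at P84, also without a call, against 7.61%, 16.5% and 16.5% of probe sets called. At P15 it was 0.83 without the 2 arrays (adjusted p = 0.0222) and 0.063 with disomic arrays alone, again not called. Averaged over the ages, cerebellum minus cortex was 0.03, hippocampus minus cortex -0.09 and hippocampus minus cerebellum -0.12, none of them called, where 29%, 9.39% and 26.8% of probe sets were. From low to high, the 12 combinations of region and age ran from the P1 hippocampus and P1 cortex through the P15 cerebellum, P1 cerebellum, P15 hippocampus, P15 cortex, P30 cerebellum, P30 hippocampus, P30 cortex and P84 cerebellum to the P84 cortex and P84 hippocampus. Neighbours in this order overlapped in 10 of 11 pairs. The exception was the gap between the P1 cortex (highest array 2.89) and the next group, the P15 cerebellum (lowest array 4.06).

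Mean Il33 was higher in Ts1Cje than in disomic mice in 12 of 12 comparisons, a property of 0.353% of probe sets that rests in part on the values by which the gene was chosen, and the 3 arrays of each group did not overlap in 6 of 12. Averaged over the ages, Ts1Cje minus disomic was 1.01 in the cerebellum (SE 0.188, 2.01-fold), 0.82 in the hippocampus (SE 0.188, 1.77-fold) and 0.50 in the cortex (SE 0.188, 1.41-fold). With values below an array's median set to that median, the P1 difference was -0.024 in the cortex and 0.00011 in the hippocampus. The cerebellar and hippocampal values chose the gene and are described only. Non-overlap in at least as many comparisons occurred for 0.244% of probe sets.

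**Figure D2:**
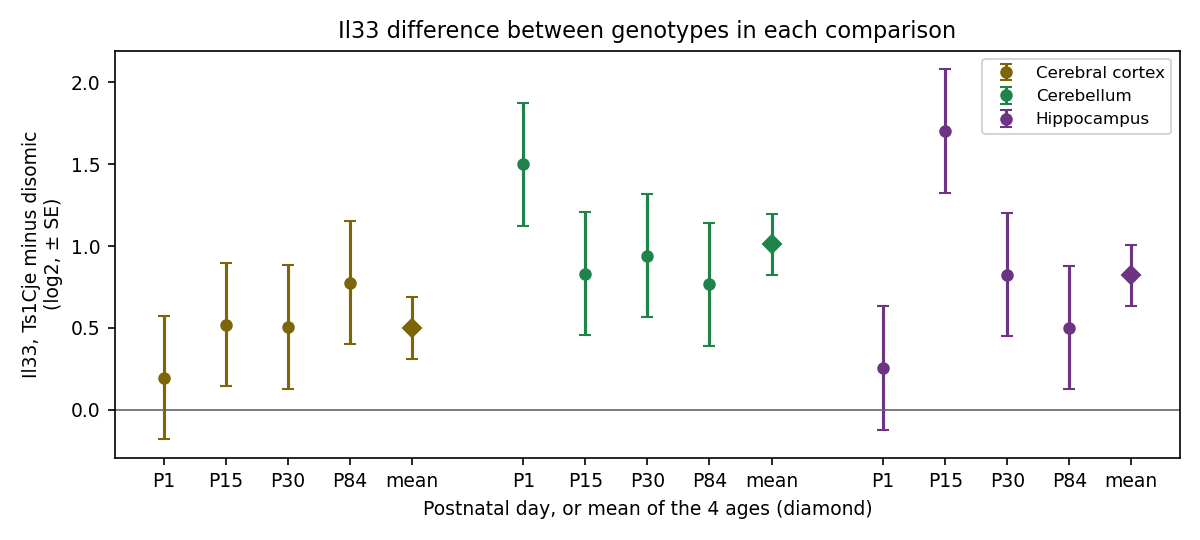
Il33 difference between genotypes (Ts1Cje minus disomic, log2) at each age and averaged over the 4 ages (diamonds) in the 3 regions, with bars of ± SE from the fit to all arrays. Every difference was above 0, from 0.20 in the P1 cortex to 1.70 in the P15 hippocampus.

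In the cerebellum at P1, Il33 had 4.97, 5.76 and 6.92 on the Ts1Cje arrays, against 3.95, 5.64 and 3.57 on the disomic arrays. These groups overlapped and were the most variable of the series for this gene, with SDs of 0.977 in Ts1Cje and 1.10 in disomic mice. The difference of 1.5 was 0.98 without Ts1Cje replicate 3, the mouse with Xist above Eif2s3y, 2.13 without disomic replicate 2, and 1.09 without disomic replicate 3, a dim array. At P15 the Ts1Cje cerebellum had 5.48, 5.45 and 5.22 and the disomic cerebellum 4.06, 4.40 and 5.20. The highest disomic value there belonged to the array labelled cerebellum that resembled hippocampus, and the difference of 0.83 was 1.16 without it. At P30 the values were 6.60, 6.62 and 7.08 in Ts1Cje and 4.95, 6.46 and 6.07 in disomic mice. All Ts1Cje arrays lay above the disomic ones at P15 and P30, in data where 4.02% of probe sets did so at either age. The P30 difference of 0.94 was 0.50 without disomic replicate 1. At P84 Ts1Cje mice had 8.10, 8.30 and 8.82 and disomic mice 7.55, 8.11 and 7.26, where the highest disomic array lay just above the lowest Ts1Cje array and the difference was 0.77.

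In the hippocampus the genotypes were not separated at P1, at 2.41, 2.65 and 3.19 in Ts1Cje and 2.50, 2.78 and 2.20 in disomic mice, all below the array medians, and the difference of 0.25 was 0.03 without Ts1Cje replicate 3. Il33 was then higher on every Ts1Cje array at each later age. At P15 it had 6.26, 6.79 and 5.90 in Ts1Cje and 5.02, 4.90 and 3.93 in disomic mice, the widest difference of the series (1.70, 3.25-fold). The lowest of these values was the array labelled hippocampus that resembled cerebellum, and without it the difference was 1.36. The P30 values were 7.12, 7.54 and 7.38 in Ts1Cje and 6.25, 6.90 and 6.41 in disomic mice, a difference of 0.83. At P84 they were 9.38, 8.96 and 9.16 in Ts1Cje and 8.58, 8.46 and 8.95 in disomic mice, a difference of 0.50 that was 0.64 without the dim disomic replicate 3. Non-overlap with Ts1Cje higher was found for 5.92%, 4.62% and 8.53% of probe sets at P15, P30 and P84.

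The cerebral cortex did not enter the choice of the gene, and Il33 was tested there. The mean over ages was higher in Ts1Cje by 0.50 (95% interval 0.12 to 0.88) with adjusted p = 0.795 over all probe sets (limma), which is not a call, and 0.202% of probe sets were called in that comparison. At P84 Il33 had 9.07, 9.0 and 9.21 in Ts1Cje cortex and 8.39, 8.41 and 8.14 in disomic cortex. These groups did not overlap, as for 6.68% of probe sets, and the difference of 0.78 became 0.69 without the dim disomic replicate 3. At P1 the values were 2.63, 2.89 and 2.71 in Ts1Cje and 2.69, 2.50 and 2.46 in disomic mice. At P15 they were 5.69, 6.39 and 6.56 in Ts1Cje and 5.26, 6.14 and 5.67 in disomic mice, and at P30 7.08, 7.79 and 6.88 in Ts1Cje and 6.49, 6.90 and 6.85 in disomic mice. The genotypes overlapped at these 3 ages, with differences of 0.20, 0.52 and 0.51, and none of the 4 ages gave a call. The P30 difference was 0.24 without Ts1Cje replicate 2 and the P15 difference 0.30 without disomic replicate 1. Shares of probe sets called at P1, P15, P30 and P84 in the cortex were 0.0111%, 0.00222%, 0.0133% and 0.0443%.

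No gene of the co-receptor or the signalling chain was called between genotypes. Il1rap, on chromosome 16 but before Sod1, where the triplicated segment begins, was covered by 5 probe sets, and none was called between genotypes in any region average, calls made for 0.202% of probe sets in the cortex, 0.231% for the cerebellum and 0.193% for the hippocampus. The probe set with the widest range (1439697_at) differed by -0.28 in the cortex (95% interval -0.75 to 0.18), -0.24 in the cerebellum and 0.18 in the hippocampus. In the hippocampus it had 7.02 ± 0.231 at P84 and 2.23 ± 0.223 at P1, and in the cortex 6.11 ± 0.471 at P84 and 3.22 ± 0.382 at P1 (SD, n = 6). The cerebellum had 3.38 ± 0.264 at P84 and 2.22 ± 0.146 at P1. All P84 arrays lay above all P1 arrays of their region, and all cerebellar P84 arrays lay below those of the cortex and the hippocampus at that age. The probe set with the highest mean (1421844_at, 4.74) exceeded the array median on 72 of 72 arrays.

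Of 25 listed genes of the receptor's signalling chain 21 were measured, and 0 of these were called higher or lower between genotypes in any region average, with median differences of 0.05, 0.05 and 0.02 in cortex, cerebellum and hippocampus. Over all 18194 genes the medians were 0.02, -0.01 and 0.01, and 0.253%, 0.264% and 0.275% of genes were called. By age, the mean of the 21 genes was 6.085 to 6.21 on the Ts1Cje and 5.99 to 6.04 on the disomic arrays of the P30 hippocampus. These groups did not overlap, as for 4.62% of single probe sets with Ts1Cje higher, and the list mean overlapped in every other comparison. Irak4 was not analysed here. The adaptor Myd88 had a mean of 2.94 and exceeded the array median on 2 of 72 arrays, with differences of 0.09, 0.20 and 0.16 in cortex, cerebellum and hippocampus. Sigirr, a receptor that dampens the pathway, had a mean of 2.56 and was above the median on 0 arrays. Traf6 was covered by 5 probe sets with differences of -0.12 to 0.14, none of them called. Absence of a call for these low genes does not show equal expression, since values near the floor of the scale can understate differences.

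None of the 5 measured ligands of the IL-1 family was called, and of these only Il18, a ligand related to Il33, had a mean of at least 5 (mean 6.96). Its differences were 0.15, 0.04 and 0.09 in the 3 regions. None of the 9 members of the IL-1 receptor family, of the 6 proteases known to cleave IL-33 (among them the mast cell chymase Cma1 and neutrophil elastase Elane) or of the 8 other alarmins was called either. S100b, a calcium-binding protein of astrocytes (mean 8.36), differed by 0.24, 0.35 and 0.18 without a call. Of 18 measured genes that IL-33 is known to induce in immune cells, such as Il5, Il13 and Ccl24, 1 was called. That gene was Arg1, an arginase of alternatively activated macrophages, higher in Ts1Cje cerebellum by 0.29 (SE 0.0584, adjusted p = 0.00617). Arg1 had 2.62, 2.63 and 2.58 on the Ts1Cje arrays of the P1 cerebellum, against 2.40, 2.33 and 2.26 on the disomic arrays. All of its values lay below the array medians, so expression above background was not shown, and the call was lost without Ts1Cje replicate 1 or without Ts1Cje replicate 2.

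**Figure D3:**
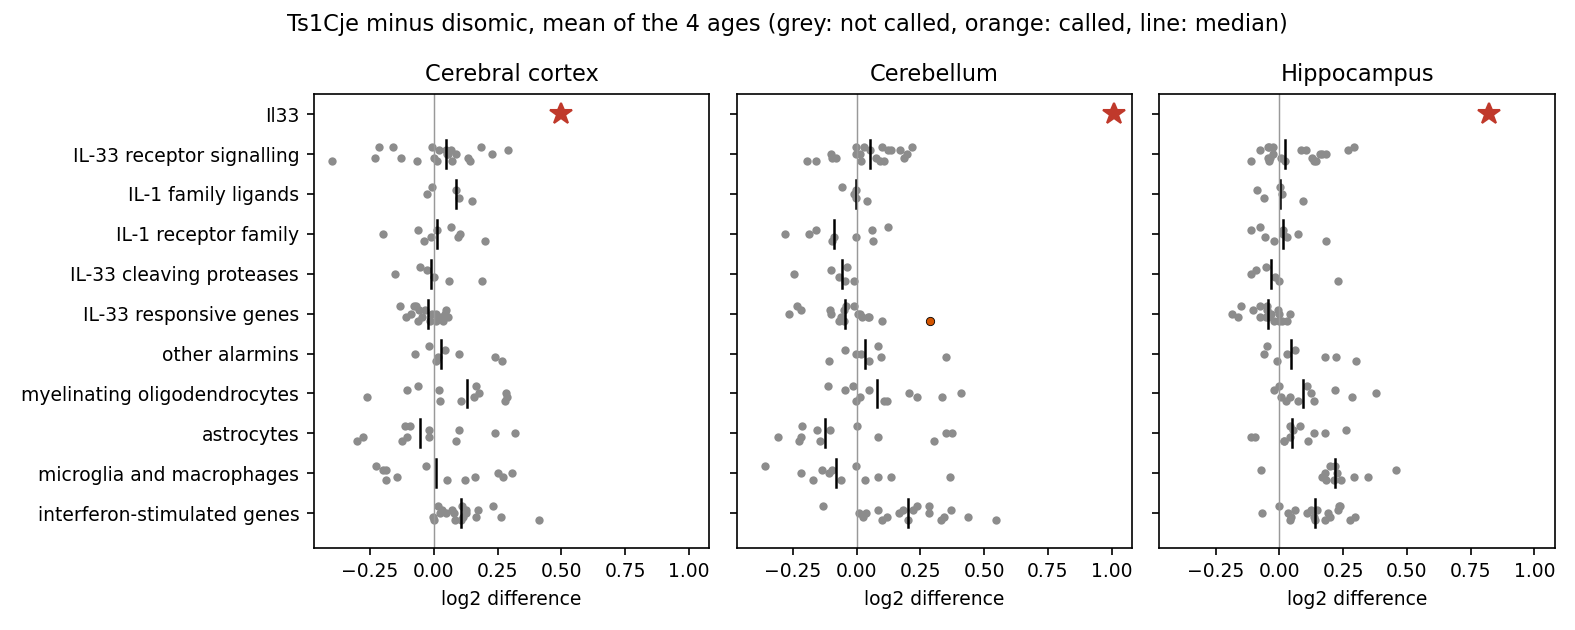
Ts1Cje minus disomic (log2, mean of the 4 ages) for each measured gene of 10 lists in the 3 regions, with called genes in orange, others in grey, black lines as list medians and the red star as Il33. The star lay at 0.50, 1.01 and 0.82, and Arg1 in the cerebellum was the only called list gene.

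No marker gene of a brain cell type was called between genotypes. None of 12 astrocyte, 12 myelinating oligodendrocyte, 7 oligodendrocyte precursor, 12 microglia and macrophage, 9 endothelial, 10 choroid plexus and meningeal, 10 neuronal and 9 mast cell and lymphocyte genes was called in a region average. Of all genes 0.253%, 0.264% and 0.275% were called in cortex, cerebellum and hippocampus. A count of 0 in lists this short is close to those shares and does not show unchanged markers. The median difference of the astrocyte list was -0.06, -0.12 and 0.05 in cortex, cerebellum and hippocampus, and that of the myelin list was 0.13, 0.08 and 0.09. In the hippocampus 11 of 12 microglial genes and 8 of 9 endothelial genes were above 0, with medians of 0.22 and 0.23. There, 9992 of all 18194 genes were above 0. These averages include the disomic P15 array that resembled cerebellum. By age, the hippocampal microglial list mean differed by -0.03 at P1, 0.61 at P15, 0.006 at P30 and 0.29 at P84. The endothelial list mean differed by 0.23, 0.41, 0.13 and -0.10 at these ages. At P15, where the hippocampal Il33 difference was widest, the endothelial list averaged 4.99 to 5.16 on the Ts1Cje arrays and 4.40 to 4.86 on the disomic arrays, without overlap, and the disomic group there holds the array that resembled cerebellum. At P84 the microglial list averaged 6.16 to 6.46 in Ts1Cje hippocampus and 5.97 to 6.14 in disomic hippocampus, and the groups did not overlap. The neuronal list did not overlap there either, at 10.97 to 10.99 in Ts1Cje and 10.66 to 10.89 in disomic mice. The disomic groups of the P84 hippocampus and the P84 cortex each hold a dim array. Beside the Il33 difference in the P84 cortex, the myelin list averaged 8.91 to 9.11 in Ts1Cje and 8.64 to 8.89 in disomic mice, without overlap. In the P84 cerebellum the astrocyte list ran the other way, at 9.89 to 10.2 in Ts1Cje and 10.3 to 10.4 in disomic mice. In the P1 cerebellum the choroid plexus and meningeal list averaged 5.46, 4.16 and 6.52 on the Ts1Cje arrays and 5.28, 5.87 and 5.12 on the disomic arrays, with the highest value on the array that also had the highest Il33. The microglial (4.95), myelin (4.60), oligodendrocyte precursor (5.83) and other alarmin (3.26) lists were also highest on that array. The endothelial (3.62) and the mast cell and lymphocyte (3.61) lists were lowest on it. The choroid plexus and meningeal list was lowest on Ts1Cje replicate 2, where Il33 was above every disomic array at 5.76. That list includes Clic6 and Kcne2, which lie in the triplicated segment, with cerebellar differences of 0.71 and 0.40 over the ages. The part of their extra copy in the list mean was not tested. In the P30 hippocampus a list of cerebellar region markers averaged 4.24 to 5.40 in Ts1Cje and 4.01 to 4.17 in disomic mice, and the other alarmins 4.09 to 4.22 in Ts1Cje and 3.87 to 3.96 in disomic mice, both without overlap. The other alarmins were also higher without overlap in the Ts1Cje P1 cerebellum (by 0.33), where the disomic group holds a dim array, and P30 cortex (by 0.19). Most comparisons of the lists overlapped, and those named here were picked after the values were seen. Single probe sets separated with Ts1Cje higher in 5.92%, 4.62% and 8.53% of cases in the P15, P30 and P84 hippocampus. The share was 6.68% in the P84 cortex. These shares are for single probe sets and not for list means, and none was computed for the P84 cerebellum, the P1 cerebellum or the P30 cortex.

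Interferon-stimulated genes, of which 2 of 19 had a mean of at least 5, had median differences of 0.11, 0.20 and 0.14 in the region averages, with 18, 18 and 17 of 19 genes above 0 and 0 called. Above 0 were also 10305, 8656 and 9992 of all 18194 genes in cortex, cerebellum and hippocampus. By age, their list mean was separated between genotypes in all 3 regions at P84. It was 3.91 to 4.01 in Ts1Cje and 3.53 to 3.67 in disomic cortex, 4.19 to 4.80 in Ts1Cje and 3.61 to 3.74 in disomic cerebellum, and 3.63 to 3.91 in Ts1Cje and 3.45 to 3.53 in disomic hippocampus. The list was also higher without overlap in the Ts1Cje P30 cortex (by 0.13) and P15 hippocampus (by 0.098), whereas in the P1 cerebellum the difference was -0.18, again without overlap. Il33 did not overlap between genotypes in the P84 cortex, the P84 hippocampus and the P15 hippocampus, and it overlapped in the other 3 of these comparisons. Single probe sets separated with Ts1Cje higher in 6.68% of cases in the P84 cortex, 8.53% in the P84 hippocampus and 5.92% in the P15 hippocampus. These shares are for single probe sets and not for means of 19 genes. A share was not computed for the P84 cerebellum, the P30 cortex or the P1 cerebellum, so the separations there have no background beside them. The disomic groups of the P84 cortex and P84 hippocampus each hold a dim array. That of the P15 hippocampus holds the array that resembled cerebellum. The part of the marker and interferon lists in the Il33 values was not tested.

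No gene of the astrocyte or myelin lists was called higher over the interval from P30 to P84, in which Il33 gained. Etnppl, which is not on the astrocyte list, was called higher in all 3 regions, by 1.21, 1.78 and 1.05 in cortex, cerebellum and hippocampus (adjusted p = 0.000357, 2.32e-08 and 0.00284, limma). Of 12 astrocyte genes 0 were called in any region, with medians of -0.19, 0.07 and -0.14 in cortex, cerebellum and hippocampus. Of 12 genes of myelinating oligodendrocytes, 2 in the cortex, 5 in cerebellar and 6 in hippocampal tissue were called lower at P84. Mog, a myelin surface glycoprotein, changed by -1.31, -1.63 and -1.37 in cortex, cerebellum and hippocampus (adjusted p = 0.00461, 5.16e-05 and 0.00203, limma), and Ugt8a, which makes the myelin lipid galactosylceramide, by -1.02, -1.25 and -1.22. In the signalling chain the only called members were the transcription factors Fos, at 5.72 at P84 and 7.80 at P30 in the cortex and 4.50 at P84 and 7.66 at P30 in the cerebellum, and Jun in the cerebellum, at -0.96. Of the other alarmins 1 was called higher, the heat shock gene Hspa1b in the cortex (1.40, adjusted p = 0.00547). Of all genes, 0.11%, 0.352% and 0.055% were called higher and 0.297%, 0.566% and 0.407% lower in cortex, cerebellum and hippocampus.

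**Figure D4:**
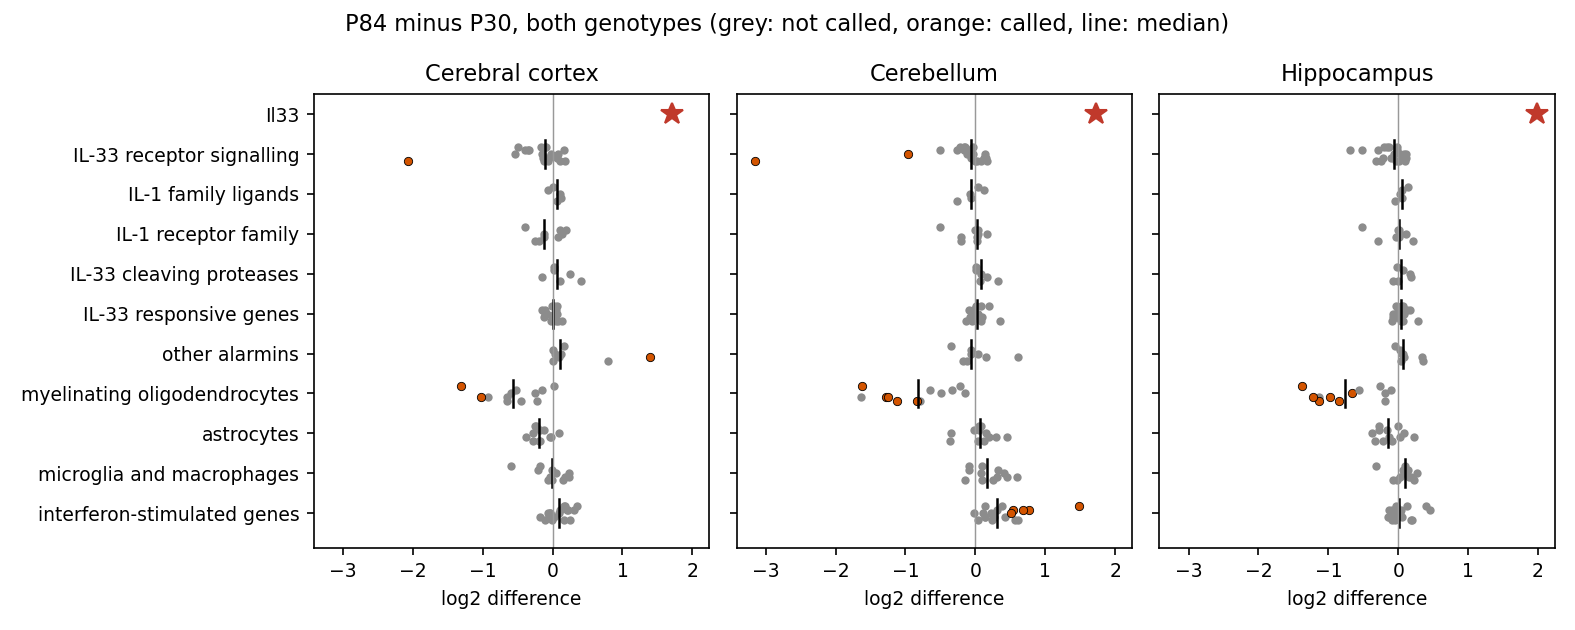
P84 minus P30 (log2, both genotypes) for each measured gene of the same 10 lists, with called genes in orange, others in grey, black lines as list medians and the red star as Il33. The star lay at 1.71, 1.73 and 1.98, to the right of every list gene in the plot, while called myelin genes lay below 0.

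Over the 24 group means, the genes most like Il33 among 7756 with a mean of at least 5 were Pttg1 (Pearson r = 0.926), Rab28, Nat8f4, Zmat1, Atpaf1, Mpp5, Aldh2, B2m, Fastkd2 and Flywch1 (r = 0.906), where the median over all genes was -0.0743. These points share their ages, regions and mice. B2m, the light chain of class I major histocompatibility molecules, differed between genotypes by 0.00, 0.33 and 0.28 in the cortex, cerebellum and hippocampus and was not called. After subtraction of the group means, over 72 arrays, the most similar were Abhd3 (r = 0.694), Pcbd2, Mmd2, Tm7sf3, Trim9, Impact, Clu, Hnmt, Dzank1 and Slc33a1 (r = 0.638), with a median of 0.165 over all genes, and regions of the same mouse share a point's animal. Clu encodes the astrocyte chaperone clusterin, and Hnmt inactivates histamine.

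Abhd3, a phospholipase of medium-chain phosphatidylcholines, was picked for the highest r of 7756 genes on these same arrays, so its r is a description only. Spearman's rho was 0.5 over all arrays. By age, r was 0.888 at P1, 0.553 at P15, 0.549 at P30 and 0.358 at P84. The r of Abhd3 was 0.821 over the 24 cerebellar arrays, 0.585 over the cortical and 0.288 over the hippocampal arrays, and 0.574 without the 2 arrays farthest from the group mean in Il33, both from the P1 cerebellum. Abhd3 averaged 8.68 in Ts1Cje and 8.26 in disomic cerebellum, a difference of 0.43 that was called (SE 0.0937, adjusted p = 0.0168, limma). In the cortex the difference was 0.38 (adjusted p = 0.0854) and in the hippocampus 0.32 (adjusted p = 0.326), neither of them called. Abhd3 had 8.85 in the adult and 2.93 in the newborn disomic cortex.

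**Figure D5:**
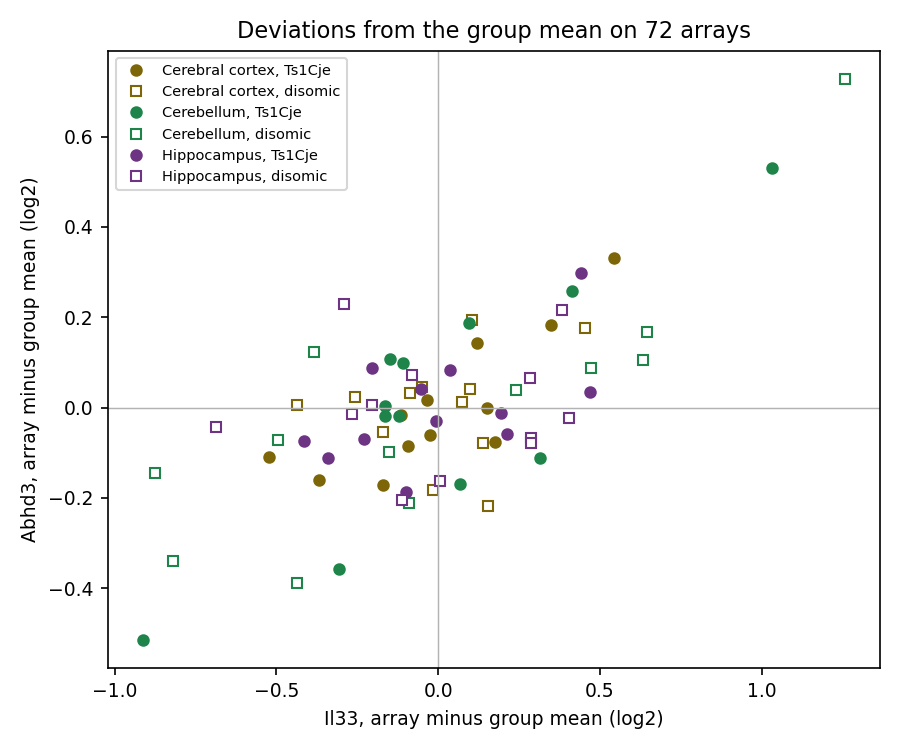
Abhd3 against Il33 on 72 arrays, both as log2 values minus the mean of the array's group, with colours for the regions, filled circles for Ts1Cje and open squares for disomic. Points rose together (r = 0.694), and the 2 farthest to the right were P1 cerebellum arrays.

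No gene next to Il33 on chromosome 19 was called between genotypes. Of the 10 nearest measured protein-coding genes, 5 on each side, 0 were called in a region average, and their differences ran from -0.13 to 0.19. The nearest of them before Il33 was Ranbp6, an importin-like gene with a mean of 8.18, at -0.12, 0.09 and 0.02 in cortex, cerebellum and hippocampus, and the next after it with a mean of at least 5 was Uhrf2, a ubiquitin ligase, at 0.02, 0.08 and 0.01. Around the Il1rl1 locus on chromosome 1, which holds further receptors of the family (Il1r1, Il1r2, Il1rl2, Il18r1 and Il18rap), 0 of 10 genes were called, with differences from -0.28 to 0.37. Of all genes 0.253%, 0.264% and 0.275% were called in cortex, cerebellum and hippocampus, so 0 of 10 is close to those shares. A mean of at least 5 was reached by 5 of the Il33 neighbours and by 1 around Il1rl1.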

How the data were processed

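Expression was measured on Affymetrix Mouse Genome arrays. The deposited values are on the log2 scale, and the authors made them with gcRMA, which corrects for background by probe base composition, normalizes the arrays and gives 1 value per probe set. GCRMA is also the tool in the submitters' processing notes (version not given in the sources used here). Values were used as deposited with no filter and no further normalization, and differences near the floor may be understated. The small number of mice (3 per group) limits the precision.

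Of 45101 probe sets, 34958 had 1 gene symbol, 932 several and 9211 none in the platform annotation, and 34754 symbols were updated by gene identifier from RefSeq (GRCm38.p6). For values per gene, the brightest probe set by mean stood for each of 18194 genes. Groups came from the labels, which call the samples biological replicates.

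R 4.3.3 with limma 3.58.1 fitted 24 group means to all 72 arrays (lmFit, eBayes, 48 residual degrees of freedom). A call needed a moderated t of 4 or more in size together with an adjusted p (Benjamini-Hochberg, all probe sets) no higher than 0.05, which are the methods' thresholds. The fit was tested on simulated data. Figures were drawn with matplotlib 3.10.9.

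The members and lists were chosen with earlier results of these data known. The genes named are Il33, list members called in a region average, Il1rap, Myd88, Traf6 and Sigirr whatever their result, and the 10 genes most like Il33 by Pearson r over group means and over arrays after subtracting group means, among genes with a mean of at least 5. Other genes, those of the P30 to P84 comparison included, were chosen after their values were seen. Alternatives were a replicate block, the mouse as a random block, 1 fit per region, quantile normalization, a trended and robust prior, a filter at a mean of 5, adjustment over the family of comparisons, all probe sets of a gene, disomic arrays alone, and arrays left out. Setting values below an array's median to that median was added after seeing the data.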

Additional observations from a re-analysis of the deposited data

How the results depend on the processing

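The mean Il33 difference of the ages kept its sign in all 3 regions under the 12 settings run for it beside leaving out replicates, and over the replicates left out in turn Ts1Cje minus disomic ran from 0.40 to 0.60 in the cortex, 0.77 to 1.29 in the cerebellum and 0.72 to 0.91 in the hippocampus. Leaving out the P1 mouse in which Xist exceeded Eif2s3y, the P1 cerebellar difference was 0.98, and it ran from 0.98 to 2.13 over single arrays left out. With values below an array's median set to it, the cortical P1 difference was -0.024, hippocampus minus cortex at P1 0.012, hippocampus minus cerebellum over the ages 0.033 and cerebellum minus cortex over the ages -0.11. The hippocampal P1 difference between genotypes was 0.00011 in that setting.

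Several small differences changed sign without being called. Cerebellum minus cortex over the ages was -0.00066 after quantile normalization, -0.0085 without the 2 displaced P15 arrays (those that went against their region labels), -0.035 without the arrays with Xist above Eif2s3y and -0.22 with disomic arrays alone, and ran from -0.065 to 0.12 over replicates left out. The cerebellar step from P1 to P15 was 0.090 without the arrays with Xist above Eif2s3y and 0.17 with disomic arrays alone, with a range of -0.53 to 0.18. Hippocampus minus cortex ranged from -0.14 to 0.039 at P1 and from -0.17 to 0.020 at P30.

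The replicate block left the cortical step from P15 to P30 at 1.05 but brought it past the moderated t (adjusted p = 0.00906, limma) and changed no other call. Same-numbered Ts1Cje and disomic arrays correlated over their deviations at -0.259 to 0.699 (median 0.178, over 0.1 in 23 of 36 pairs), and the numbers were not taken as pairs. Regions of the same genotype, age and number gave -0.872 to 0.65 (median 0.21, over 0.1 in 47 of 72 pairs). The correlations therefore cannot decide whether the numbers are pairs. The same step of 1.05 was also called in 1 fit per region (adjusted p = 0.000698), without the displaced arrays (0.00677), without the 3 dim arrays (0.00944), without both (0.00398) and without the arrays with Xist above Eif2s3y (0.00777), and ranged from 0.95 to 1.23 over replicates left out. Cerebellum minus cortex at P15 was called at -1.15 without the displaced arrays (adjusted p = 0.000547), also with the dim arrays left out (0.000344). Calls were lost for the cortical step from P30 to P84 with disomic arrays alone (1.57, adjusted p = 0.0684) and for the cerebellar step from P15 to P30 in 1 fit per region (1.33, adjusted p = 0.0295) and with disomic arrays alone (1.27, adjusted p = 0.0299). The cause was not tested.

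Of the IL-33 pathway lists, the 1 cerebellar call (Arg1) became 0 with a mean of at least 5, in 1 fit per region and with values set to the array median, and was 0 to 1 over replicates left out. The cell type and interferon lists had 2 cerebellar calls without the displaced arrays (Ctss and Rtp4), 1 with the dim arrays also left out (Ctss), and 2 over all probe sets of a gene (H2-K1 and Clic6), where the hippocampus had 1 (H2-K1). Clic6 lies in the triplicated segment. Over replicates left out they had 0 to 1 in the cortex and 0 to 2 in the cerebellum. No region comparison was made in the fits per region, and no alternative was run for Il1rl1, which had no probe set. Values below the array medians limit what can be said of Il33 at P1 and of most receptor genes, and the spread between mice (SD 0.473 within groups) limits the single ages.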

Other observations

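Among the interferon-stimulated genes, 5 of 19 were called higher at P84 than at P30 in the cerebellum and 0 in the cortex and hippocampus, a comparison chosen after the values were seen. Ifit3, which encodes an antiviral protein, had 6.29 at P84 and 4.81 at P30 in the cerebellum (adjusted p = 8.27e-07, limma). The others were Oasl2 (0.77), Usp18 (0.51), Xaf1 (0.69) and Gbp2 (0.53, log2 differences). This step pools the genotypes. The cerebellar mean of the 19 genes was 4.49 at P84 and 3.75 at P30 in Ts1Cje mice, and 3.67 at P84 and 3.62 at P30 in disomic mice, so most of the step lay in Ts1Cje mice, and the genotypes did not overlap at P84. Neither a difference between genotypes in this step nor one between the regions was tested.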
